A study of Mus musculus with 16 samples.

Results

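The genes of the integrated stress response and of serine and one-carbon synthesis were described in mouse hearts after pressure overload, as 10 genes picked by name from the 55573 genes of the count table: Atf4, Atf5, Ddit3, Trib3, Asns, Phgdh, Psat1, Shmt2, Mthfd2 and Fgf21. They matched 11 rows, because the symbol Ddit3 stands on a second row with exons of 105 bases and 0 to 5 counts per mouse, and the row with the longer exons was used. Of the 10 genes, 9 passed the filter on low counts and were tested, and Fgf21 had 0 counts in every mouse. After TAC, 2 of the 9 tested genes, Phgdh and Mthfd2, rose in hearts with the control virus, a call that each of them lost in 6 of 8 refits that left out 1 mouse, and none of the 9 passed the test between the viruses.

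The integrated stress response is a relay in which kinases that sense stress phosphorylate the translation factor eIF2alpha, which slows most protein synthesis while the transcription factor ATF4 is made in larger amount. ATF4 then turns on genes for amino acid uptake, asparagine and serine synthesis, and the mitochondrial folate pathway that draws 1-carbon units from serine. In heart and skeletal muscle this program is best known from mitochondrial disease models, in which Fgf21 and Gdf15 are secreted as part of it.

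The mice were wild type and 16 in number, 4 in each of 4 groups. Every mouse, control mice included, had received an AAV9 virus under the skin on postnatal day 1, AAV9-cTNT-CARDINAL or, as the control, AAV9-cTNT-GFP. The cTNT promoter drives both transgenes in cardiomyocytes, so other cardiac cells were not meant to express them, and Cardinal is a long noncoding RNA of the heart. Mice with each virus then had sham surgery or TAC (transverse aortic constriction, which makes the left ventricle pump against a narrowed aorta), and the apex of the heart was taken 4 weeks later. The groups are named by virus and surgery, AAV9-GFP sham and TAC beside AAV9-Cardinal sham and TAC, and the study asked whether added Cardinal tempers the response to TAC. The age at surgery was not given in the sample labels, and the study used males only.

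Totals lay between 16441997 and 21904589 counts per mouse, with AAV9-Cardinal sham replicate 4 the lowest and all other mice at 21525012 or more. The Cardinal gene (Gm12295) was at 3.42 to 7.24 CPM (counts per 1000000, on TMM-scaled library sizes) in mice with AAV9-GFP and at 18.3 to 93.9 CPM in mice with AAV9-Cardinal. The summed CPM of 5 cardiomyocyte markers was 22542 to 33714 in all mice, whereas 2 of 3 hepatocyte markers were at 0 in every mouse and the summed CPM of 3 adipocyte markers was at most 0.797. The summed CPM of 6 fibroblast markers was 446 to 505 in AAV9-GFP sham, 716 to 934 in AAV9-GFP TAC and 434 to 482 in AAV9-Cardinal sham hearts. In AAV9-Cardinal TAC hearts it was 738 in replicate 1 and 452 to 479 in the others, so replicate 1 stood apart. In apex RNA, fewer cells of a type and less RNA per cell cannot be told apart.

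Promoter sequence was searched for the C/EBP-ATF element, the composite site that ATF4 shares with C/EBP proteins, spelled TGATGNAA, on both strands of the RefSeq promoters (GRCm38.p6), from 250 bases before to 50 bases after each gene's start. It was found in 3 of the 12 promoters of the 10 genes (25%, in 3 genes) and in 3.97% of all 32851 promoters. The 3 matches are printed because they mark which of the 10 genes carry the letters of the site next to the start. Capitals mark the match, and each sequence reads 5′ to 3′ on the strand of its gene.
Trib3 (chr2:152344028-152344057, minus strand): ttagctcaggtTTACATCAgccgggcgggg
Asns (chr6:7693214-7693243, minus strand): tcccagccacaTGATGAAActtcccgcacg
Fgf21 (chr7:45615611-45615640, minus strand): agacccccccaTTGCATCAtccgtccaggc
Relative to the RefSeq start, the match of Asns begins at position -23 on the strand of the gene and that of Fgf21 at position -139 on the opposite strand. That of Trib3 begins at base 15 of the RefSeq transcript, also on the opposite strand. The RefSeq start of Trib3 lies upstream of the gene as GENCODE M21 annotates it, so this match falls outside the GENCODE gene. The RefSeq start of Asns lies inside the gene as GENCODE M21 annotates it, so this match falls within the GENCODE gene. The other 7 genes had no match in this window. For Psat1 and Mthfd2 the windows lie inside the gene as GENCODE M21 annotates it, so its GENCODE start was not searched. Trib3 and Asns, with these letters, did not pass the test with either virus, and Fgf21 was not tested. The 78 promoters of other genes of the pathway, from lists given further on, held the element in 14 cases (17.9%). The ER stress element (ERSE) was in 0 of the 10 genes, 5 of those 78 promoters and 0.119% of all promoters.

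**Figure D1:**
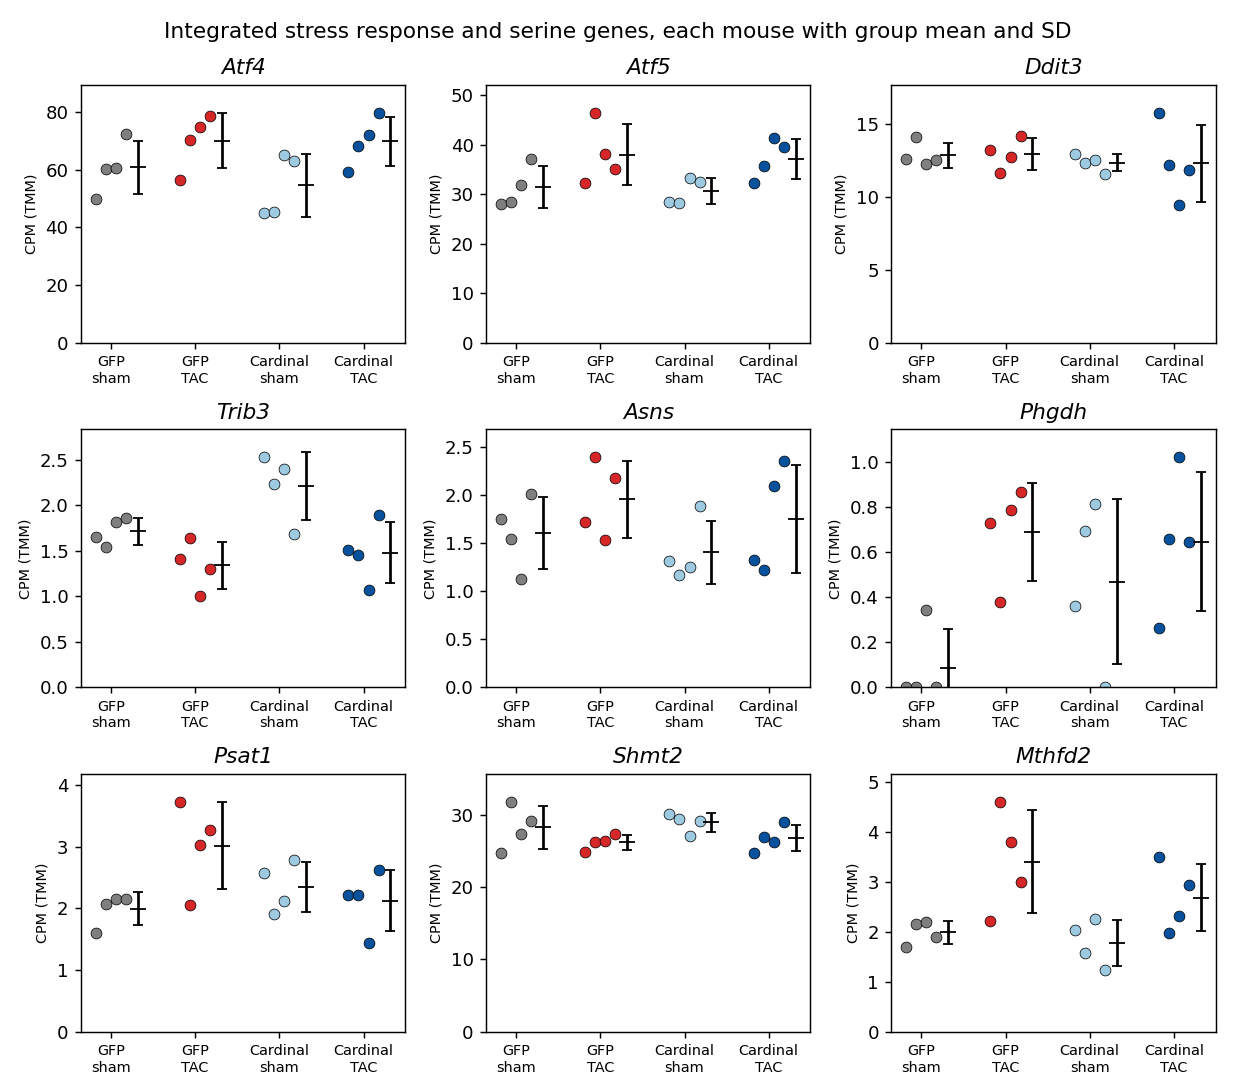
Levels of the 9 tested genes in each mouse. The vertical axis is CPM on TMM-scaled library sizes and starts at 0, each point is 1 mouse, and the bars give the group mean with its SD (n = 4). Of the 9 genes, Phgdh and Mthfd2 have every AAV9-GFP TAC point above every AAV9-GFP sham point, and 4 mice, all sham, have Phgdh at 0.

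Per length of exon, in AAV9-GFP sham hearts, Atf4 was the most abundant of the 10 genes at 25.8 ± 3.93 CPM per kb (SD, n = 4), followed by Atf5 at 15.7 ± 2.13, Shmt2 at 9.09 ± 0.956 and Ddit3 at 7.51 ± 0.495. Trib3 (0.807 ± 0.0694), Asns (0.587 ± 0.136), Mthfd2 (0.572 ± 0.0673) and Psat1 (0.469 ± 0.0614) were all below 1 CPM per kb, and Asns and Mthfd2 differed by less than their SDs. Phgdh, at 0.0345 ± 0.0690 CPM per kb, was the lowest of the detected genes. The mitochondrial enzyme Shmt2 was thus at a higher level per length than Mthfd2, the enzyme that follows it in the same pathway.

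The first question was whether TAC changed these genes in hearts with the control virus. With edgeR's quasi-likelihood test and Benjamini-Hochberg adjustment over 16857 genes, 2 of the 9 tested genes were higher, where 8.49% of all tested genes were. Of the 9, 0 were lower, where 8.92% of all were, and 4 had an unadjusted p under 0.05, beside 5041 of the 16857. The 2 called genes, Phgdh and Mthfd2, had groups that did not overlap, against 20.3% of all tested genes. The median log2 fold change of the 9 genes was 0.28, beside 0.0050 over all tested genes.

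Of the transcription factors, Atf4 is the effector of the response. Its levels in AAV9-GFP sham hearts were 49.9, 60.3, 60.4 and 72.5 CPM in replicates 1 to 4, and those in AAV9-GFP TAC hearts were 56.6, 70.3, 74.7 and 78.6 CPM in replicates 1, 3, 4 and 7. The groups overlapped, with a log2 fold change of 0.21 (SE, the standard error of the fit, 0.15; adjusted p = 0.38 by edgeR). Because ATF4 is controlled at translation, its RNA level is not a measure of the protein.

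Atf5, a related factor that is also translated under stress and takes part in the mitochondrial stress response, was at 27.95, 28.4, 31.95 and 37.2 CPM in AAV9-GFP sham and at 32.3, 46.5, 38.1 and 35.2 CPM in AAV9-GFP TAC hearts (log2 fold change 0.28, SE 0.12, adjusted p = 0.12 by edgeR). Only AAV9-GFP sham replicate 4 reached into the range of the TAC mice. Ddit3 encodes CHOP, the factor that links long stress to cell death. It was at 12.3 to 14.1 CPM in AAV9-GFP sham and 11.6 to 14.2 CPM in AAV9-GFP TAC hearts, and its log2 fold change was 0.0096 with a 95% interval from -0.24 to 0.26. Its exons overlap those of Mars on the other strand over part of their length (10.9% with all overlapping genes), and reads of the overlap could not be told apart without strand.

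Trib3, a pseudokinase induced by ATF4 and CHOP that holds ATF4 back, was at 1.66, 1.54, 1.81 and 1.86 CPM in AAV9-GFP sham hearts. In AAV9-GFP TAC hearts it was at 1.41, 1.64, 1.01 and 1.30 CPM, so 3 of 4 TAC mice lay below all sham mice and replicate 3 lay among them. The log2 fold change of -0.35 (SE 0.18) did not pass the test (adjusted p = 0.21 by edgeR). Asns, which makes asparagine from aspartate and is a standard reporter of ATF4, was at 1.13 to 2.00 CPM in AAV9-GFP sham and 1.53 to 2.39 CPM in AAV9-GFP TAC hearts (log2 fold change 0.28, SE 0.24, adjusted p = 0.47 by edgeR).

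The enzymes of serine synthesis were low. Phgdh (GRCm38 chr3:98313170-98339990, minus strand), the first step from glycolysis, had 0, 0, 7 and 0 counts in AAV9-GFP sham hearts (replicates 1 to 4), and 17, 9, 18 and 20 counts in AAV9-GFP TAC hearts (replicates 1, 3, 4 and 7). In CPM the group means were 0.0857 ± 0.171 and 0.691 ± 0.217 (SD, n = 4), and the groups did not overlap. The sham mean lay below the level that 3 counts correspond to in any mouse (0.126 to 0.195 CPM, a limit for counting error alone). The fitted log2 fold change was 2.94 (95% interval 1.05 to 4.83, adjusted p = 0.033 by edgeR), and the exact two-sided permutation test gave p = 0.029, the smallest that 4 mice against 4 allow.

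The size of the Phgdh change rests on few reads. Of its 50-base stretches, 47.8% are shared with 6 annotated genes of the Gm series that each had at most 4 counts in any mouse, so the authors' treatment of reads with several matches could have moved its counts. Without AAV9-GFP sham replicate 3, the only control sham mouse with a count, the fitted log2 fold change was 6.90. Leaving out any of the other 3 sham mice, or TAC replicate 1, 4 or 7, raised the adjusted p to between 0.051 and 0.087.

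Psat1 (chr19:15904678-15947337, minus strand), the second step of serine synthesis, was at 1.61, 2.07, 2.16 and 2.15 CPM in AAV9-GFP sham hearts and at 3.73, 2.06, 3.02 and 3.261 CPM in AAV9-GFP TAC hearts. In 3 of 4 TAC mice it was above every sham mouse, and replicate 3 was within the sham range. The log2 fold change was 0.60 (SE 0.20), and the adjusted p of 0.0505 missed the threshold of 0.05. Without TAC replicate 3 the log2 fold change was 0.74 and the adjusted p was 0.016 by edgeR.

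Of the mitochondrial one-carbon enzymes, Shmt2 takes a 1-carbon unit from serine and passes it to folate, and Mthfd2 oxidizes the product in the next step. Shmt2 was at 24.7 to 31.8 CPM in AAV9-GFP sham and 24.8 to 27.3 CPM in AAV9-GFP TAC hearts (log2 fold change -0.11, 95% interval -0.26 to 0.041). Mthfd2 (GRCm38 chr6:83305691-83325908, minus strand) was at 1.70, 2.16, 2.21 and 1.91 CPM in AAV9-GFP sham hearts, and at 2.23, 4.62, 3.81 and 3.00 CPM in AAV9-GFP TAC hearts. All 4 TAC mice were above all 4 sham mice, with TAC replicate 1 next to the highest sham mouse and TAC replicate 3 far from it.

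The change of Mthfd2 was 1.71-fold (95% interval 1.22 to 2.41), or 0.77 on the log2 scale (SE 0.23, adjusted p = 0.031 by edgeR). The p of 0.029 by the exact two-sided permutation test (n = 4 per group) again only follows from the lack of overlap. TAC replicate 3, with the highest Mthfd2, also had the highest fibroblast marker sum of all 16 mice (934 CPM), and replicate 1, with the lowest Mthfd2 of the TAC mice, had the lowest sum among them (716 CPM). The other 2 TAC mice did not keep this order, since replicate 4 had more Mthfd2 than replicate 7 with a lower sum (729 against 773 CPM). Of the 6 fibroblast markers, 4 were called higher in AAV9-GFP TAC hearts, where 8.49% of all tested genes were. Of the 5 cardiomyocyte markers, 4 were called lower, where 8.92% of all were. The part of these cells in the change of Mthfd2 was not tested. Without TAC replicate 3 the log2 fold change was 0.60 and the adjusted p was 0.11, and without TAC replicate 4 or any 1 of the sham mice the adjusted p was 0.051 to 0.084.

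Fgf21, a hormone of the stress program that is made mostly in the liver, had 0 counts in all 16 mice, which allows at most 0.126 to 0.195 CPM in a mouse. Its co-receptor Klb was at most at 0.184 CPM and was not tested, whereas the mean level of its receptor Fgfr1 in AAV9-GFP sham hearts was 24.7 ± 1.16 CPM (SD, n = 4).

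In hearts with AAV9-Cardinal, TAC against sham gave 0 calls among the 9 genes, higher or lower, where 3.1% of all tested genes were higher and 3.38% were lower. DESeq2 also called 0. By edgeR, 4 of the 9 genes (Atf4, Atf5, Trib3 and Mthfd2) had an unadjusted p under 0.05, beside 3682 of all 16857 tested genes. None of the 9 had groups that did not overlap, against 13.7% of all tested genes. The median log2 fold change was 0.28 for the 9 genes and -0.00047 for all tested genes.

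Trib3 came nearest to the threshold in these hearts. It was at 2.53, 2.23, 2.40 and 1.69 CPM in AAV9-Cardinal sham replicates 1 to 4 and at 1.504, 1.46, 1.07 and 1.89 CPM in AAV9-Cardinal TAC replicates 1, 4, 5 and 6 (log2 fold change -0.59, SE 0.18, adjusted p = 0.062 by edgeR). The overlap came from sham replicate 4, the mouse with the lowest total count, and TAC replicate 6, and without either of these the adjusted p was 0.045 or 0.048.

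Atf4 in AAV9-Cardinal hearts was at 44.8, 45.4, 65.0 and 62.9 CPM after sham surgery and at 59.1, 68.1, 72.0 and 79.8 CPM after TAC, a log2 fold change of 0.36 (SE 0.15, adjusted p = 0.16 by edgeR). Sham replicates 1 and 2 were low and replicates 3 and 4 overlapped the TAC mice. Mthfd2 was at 2.03, 1.58, 2.26 and 1.23 CPM after sham surgery and 3.50, 1.97, 2.33 and 2.95 CPM after TAC (log2 fold change 0.58, SE 0.24, adjusted p = 0.17 by edgeR). The highest value, 3.50 CPM, was that of TAC replicate 1, the mouse with the high fibroblast marker sum; the part of these cells was not tested.

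Atf5 had a log2 fold change of 0.28 (SE 0.12, adjusted p = 0.17 by edgeR) and Asns one of 0.34 (SE 0.25), with overlap in both. Ddit3 spread more among AAV9-Cardinal TAC mice (9.45 to 15.8 CPM) than among sham mice (11.6 to 13.0 CPM), and its log2 fold change was -0.0056. Phgdh had 8, 15, 17 and 0 counts in AAV9-Cardinal sham and 6, 14, 22 and 14 counts in AAV9-Cardinal TAC hearts, where Psat1 was at 1.44 to 2.62 CPM beside 1.91 to 2.79 CPM after sham surgery. Shmt2 was at 27.1 to 30.1 CPM in AAV9-Cardinal sham and 24.7 to 29.0 CPM in AAV9-Cardinal TAC hearts (log2 fold change -0.11, 95% interval -0.27 to 0.038). Neither serine gene passed the test here (log2 fold changes 0.39 and -0.14, adjusted p 0.80 and 0.77 by edgeR).

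**Figure D2:**
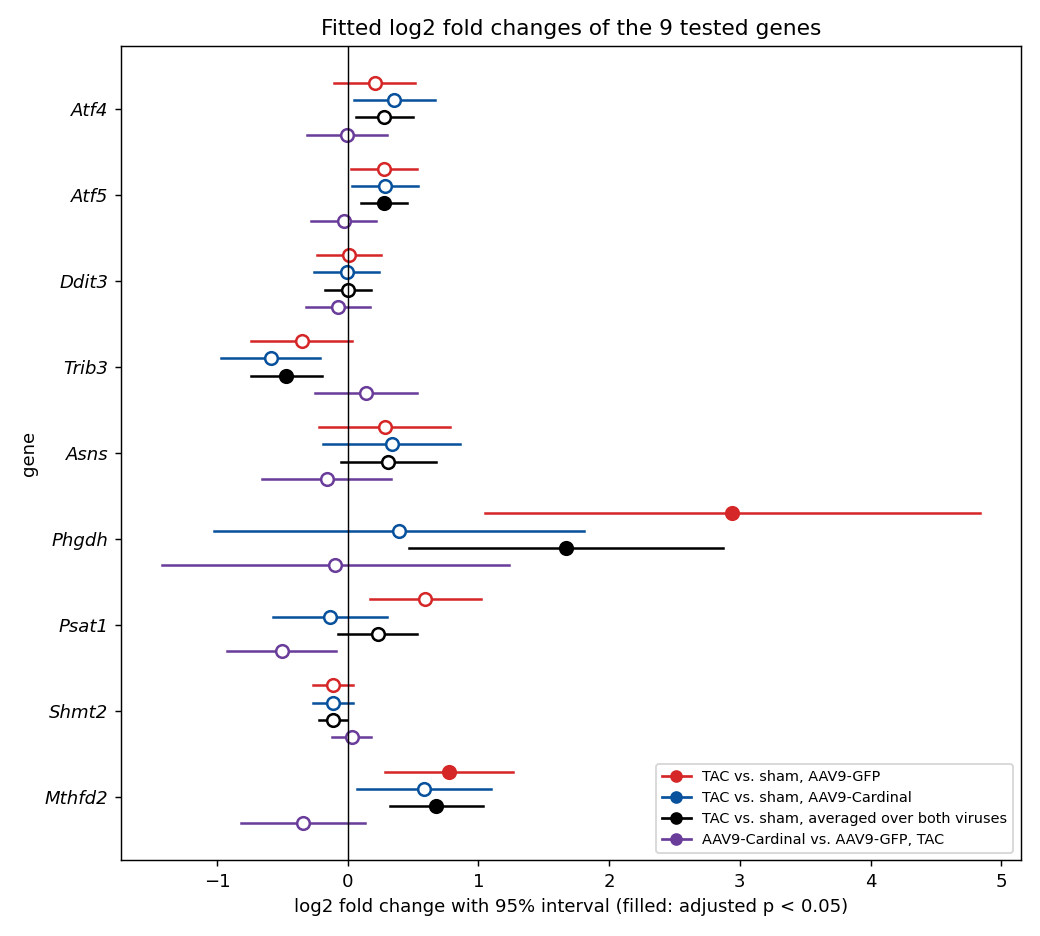
Fitted log2 fold changes of the 9 tested genes (horizontal axis) with their 95% intervals, for TAC against sham with each virus, for TAC against sham averaged over both viruses, and for AAV9-Cardinal against AAV9-GFP after TAC. Filled points passed an adjusted p of 0.05: Phgdh and Mthfd2 with AAV9-GFP, and Atf5, Trib3, Phgdh and Mthfd2 in the average.

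To use all 16 mice, the TAC effect was also averaged over the viruses in the same fit, a comparison chosen after the values had been seen. Of the 9 genes, 3 were higher (Atf5, Phgdh and Mthfd2), where 11.3% of all tested genes were, and 1 was lower (Trib3), where 11.8% were. The averaged log2 fold change of Mthfd2 was 0.68 (SE 0.17, adjusted p = 0.0082 by edgeR), that of Atf5 was 0.28 (SE 0.083, adjusted p = 0.024) and that of Trib3 was -0.47 (SE 0.13, adjusted p = 0.014).

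Mthfd2 and Trib3 passed the test without any 1 of the 16 mice, with adjusted p of 0.0022 to 0.020 and 0.0075 to 0.032. Atf5 passed in 12 of the 16 refits that left out a mouse, and Phgdh (averaged log2 fold change 1.67, adjusted p = 0.044 by edgeR) in 5 of the 16. Atf4 had an averaged log2 fold change of 0.28 and an adjusted p of 0.061 by edgeR, and 0.035 by DESeq2. Ddit3, at 0.0020 with a 95% interval from -0.17 to 0.18, was the gene nearest to 0. So Trib3, a target of ATF4 and CHOP, moved against Atf5 and Mthfd2, and Asns (0.31, 95% interval -0.053 to 0.67), also a target, did not pass the test.

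The next question was whether the genes differed between the viruses. After TAC, AAV9-Cardinal against AAV9-GFP gave 0 calls among the 9 genes by edgeR and by DESeq2 (edgeR called 0.101% of all tested genes). Of the 9, 1 had an unadjusted p under 0.05, beside 2528 of all 16857 tested genes. None of the 9 lacked overlap, against 6.77% of all. The largest difference was in Psat1, at 2.21, 2.21, 1.44 and 2.62 CPM in AAV9-Cardinal TAC replicates 1, 4, 5 and 6, beside 2.06 to 3.73 CPM in AAV9-GFP TAC hearts (log2 fold change -0.50, 95% interval -0.92 to -0.088, adjusted p = 0.24 by edgeR). For Mthfd2 the difference was -0.34 (95% interval -0.82 to 0.13), and for Atf4 it was -0.0060 (95% interval -0.31 to 0.30). For comparison, the sum of the hypertrophy markers Nppa, Nppb and Acta1 and the fibrosis marker Fn1 lay at 2761 to 4648 CPM in AAV9-GFP TAC and 974 to 2038 CPM in AAV9-Cardinal TAC hearts, without overlap. Of these 4 genes, 2 (Nppa and Acta1) had no overlap and 1 (Acta1) was called lower.

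After sham surgery, 0 of the 9 genes were called by either tool (0.0119% of all tested genes by edgeR). None lacked overlap, against 2.36% of all. An unadjusted p under 0.05 was found for 2 of the 9, beside 437 of all 16857 tested genes. Those 2 were Trib3, higher with AAV9-Cardinal by 0.38 (95% interval 0.00225 to 0.75), and Phgdh (2.46, 95% interval 0.44 to 4.47), which had 0 to 7 counts in AAV9-GFP sham and 0 to 17 counts in AAV9-Cardinal sham hearts. Both adjusted p were 1 by edgeR.

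The TAC responses themselves were compared by the interaction of surgery and virus. No member was called by edgeR or DESeq2, where 0.0119% of all tested genes were by edgeR. The unadjusted p was under 0.05 for 2 members, beside 1722 of all 16857 tested genes. The response of Phgdh was 2.55 lower on the log2 scale with AAV9-Cardinal than with AAV9-GFP (95% interval of the difference -4.99 to -0.11, adjusted p = 0.47 by edgeR), and that of Psat1 was 0.73 lower (95% interval -1.34 to -0.13, adjusted p = 0.40 by edgeR). A change of Phgdh and Mthfd2 that was called in AAV9-GFP hearts only is therefore not shown to differ between the viruses. For Mthfd2 the interval of the difference ran from -0.91 to 0.52, and for Atf4 from -0.29 to 0.59.

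Around these 10 genes, 91 further genes of the pathway were read from 10 lists, of which 89 were tested. In AAV9-GFP hearts 14 of the 89 were higher and 10 lower after TAC, with a median log2 fold change of -0.0013, and 23 had no overlap, where 8.49%, 8.92% and 20.3% of all tested genes were higher, lower and without overlap. In AAV9-Cardinal hearts 5 were higher and 2 lower, with a median of 0.070, and 17 had no overlap, beside 3.1%, 3.38% and 13.7% of all tested genes. An unadjusted p under 0.05 was found for 37 of the 89 with AAV9-GFP and 24 with AAV9-Cardinal, beside 5041 and 3682 of all 16857. These shares of all tested genes are also the ones to set beside the counts of each list below. None of the 89 was called between the viruses after TAC, after sham surgery or in the interaction by edgeR. Unadjusted p lay under 0.05 for 14, 4 and 15 of the 89, beside 2528, 437 and 1722 of all 16857 tested genes. Between the viruses after TAC, DESeq2 called 2 of the 89, Hspa9 and Hspd1, of the mitochondrial chaperones, beside 339 of all 16857 tested genes. Between the viruses after sham surgery and in the interaction DESeq2 called 0 of the 89, beside 4 and 19 of all. For TAC against sham it called 24 of the 89 with AAV9-GFP and 6 with AAV9-Cardinal, beside 2895 and 1340 of all 16857 tested genes.

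The sensors of the response were mixed. Of 9 genes for eIF2alpha kinases, relay proteins and phosphatase cofactors, Eif2ak2, the kinase that senses double-stranded RNA, rose by a log2 fold change of 0.41 (SE 0.13) and Eif2ak3, the kinase of the endoplasmic reticulum, by 0.28 (SE 0.076, not called by DESeq2) in AAV9-GFP TAC hearts. Dele1 and Oma1, which carry the signal from stressed mitochondria to the response, fell by 0.27 (SE 0.050) and 0.31 (SE 0.077) on the log2 scale. Dele1 also fell in AAV9-Cardinal TAC hearts, by 0.20 (SE 0.050, adjusted p = 0.029 by edgeR), from 115 ± 1.48 to 100.1 ± 5.99 CPM (SD, n = 4). None of the 8 eIF2 and eIF2B subunits passed the test with either virus by edgeR or DESeq2 (1 and 2 had an unadjusted p under 0.05), and their largest change after TAC was in Eif2b4 with AAV9-GFP (0.17) and in Eif2b3 with AAV9-Cardinal (-0.19).

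Among 11 other partners and targets of ATF4 and CHOP, Gdf15, a secreted stress factor, went from 0.471 ± 0.352 to 3.06 ± 2.55 CPM (SD, n = 4) in AAV9-GFP hearts (log2 fold change 2.69, SE 0.62, adjusted p = 0.0080 by edgeR), although the groups overlapped. Nupr1, a stress-induced transcription cofactor, rose by 0.84 (SE 0.20) and Vldlr, a lipoprotein receptor, fell by 0.30 (SE 0.089) on the log2 scale. In AAV9-Cardinal hearts Cebpg, a dimer partner of ATF4, was the one gene of this list that passed (0.43, SE 0.11), and the value of Gdf15 was 1.22 (SE 0.70, adjusted p = 0.33 by edgeR). The interaction for Gdf15 was -1.46 (SE 0.98, adjusted p = 0.64 by edgeR).

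Amino acid transporters moved in both directions. Of 8 tested, Slc1a4, which carries serine and other neutral amino acids, rose by 1.10 (SE 0.23) in AAV9-GFP TAC hearts, Slc7a5, the large neutral amino acid carrier, by 0.81 (SE 0.16) and Slc7a11, the cystine carrier, by 0.44 (SE 0.11). Slc7a1, the cationic amino acid carrier, fell by 0.72 (SE 0.11) on the log2 scale, from 48.5 ± 2.65 to 29.5 ± 2.05 CPM (SD, n = 4). With AAV9-Cardinal, Slc7a11 rose by 0.43 (SE 0.11) and Slc7a1 fell by 0.63 (SE 0.11), the first of which DESeq2 did not call.

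A list of 13 genes linked to ATF4 held tRNA synthetase genes and Xpot, a gene of tRNA export. Yars, Aars and Sars rose in AAV9-GFP TAC hearts by 0.39, 0.25 and 0.19. Of the 13, 11 had a log2 fold change above 0 (median 0.13). Yars also rose with AAV9-Cardinal (0.31, SE 0.058), where the median of the list was 0.055. Among 8 tested enzymes of serine, glycine, proline and transsulfuration, Aldh18a1, the first step of proline synthesis, rose by 0.76 (SE 0.12) and Shmt1, the cytosolic counterpart of Shmt2, by 0.31 (SE 0.093) with AAV9-GFP, the second of which DESeq2 did not call. None passed with AAV9-Cardinal by edgeR or DESeq2 (1 had an unadjusted p under 0.05), and the log2 fold change furthest from 0 was that of Gldc (0.57, SE 0.49).

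The folate list of 11 genes split in AAV9-GFP TAC hearts. Tyms, which makes thymidylate, rose by 0.90 (SE 0.21), whereas Aldh1l2, a mitochondrial enzyme that burns the 1-carbon unit to CO2, fell by 1.02 (SE 0.20) and Mtr, methionine synthase, fell by 0.69 (SE 0.12) on the log2 scale. Mtr went from 165 ± 21.2 to 102 ± 14.5 CPM and Aldh1l2 from 7.95 ± 1.21 to 3.92 ± 0.701 CPM (SD, n = 4). Mthfd2 and Aldh1l2, both of the mitochondrial folate pathway, thus changed in opposite directions in these hearts. With AAV9-Cardinal none of the 11 passed by edgeR or DESeq2 (3 had an unadjusted p under 0.05), and Aldh1l2 had a log2 fold change of -0.60 (SE 0.20, adjusted p = 0.087 by edgeR).

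**Figure D3:**
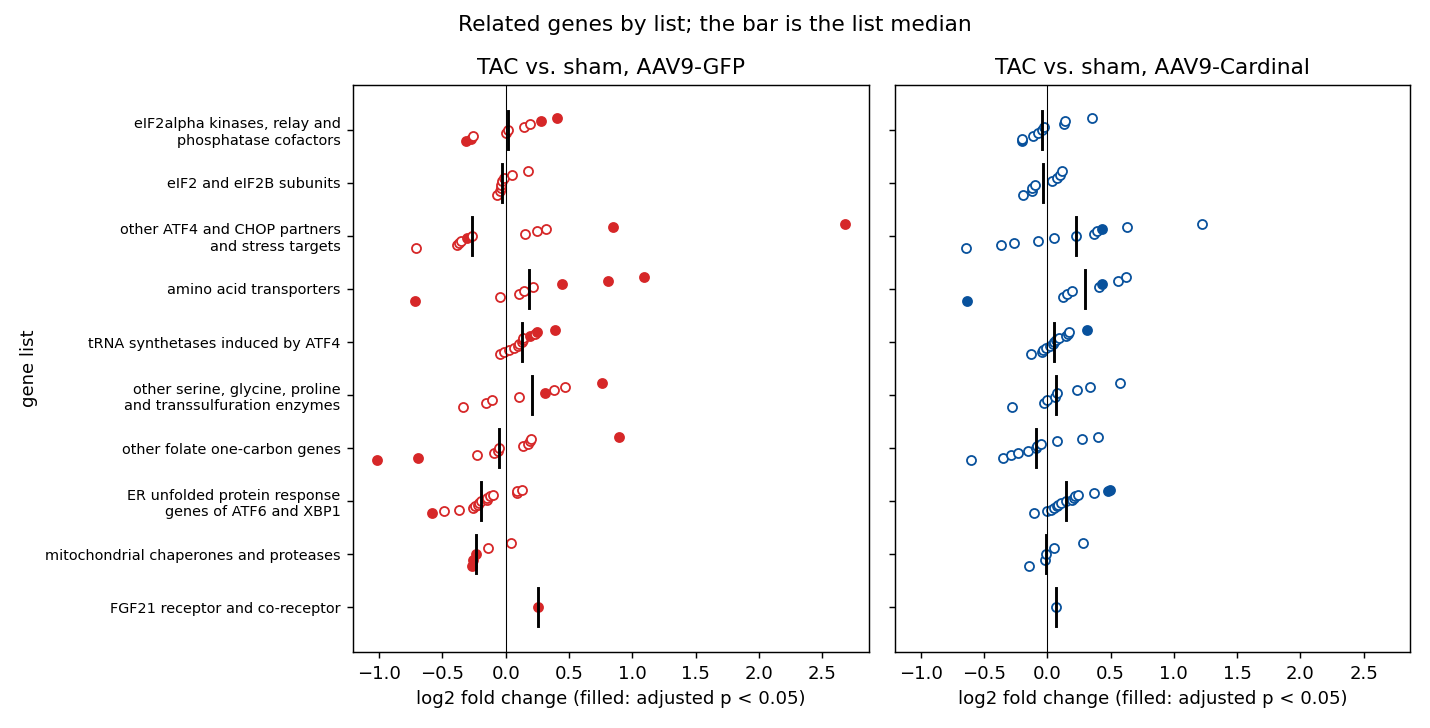
Fitted log2 fold changes (horizontal axis) of the 89 tested genes of the pathway after TAC, by list, in AAV9-GFP hearts (left) and AAV9-Cardinal hearts (right). Each point is 1 gene, filled points passed an adjusted p of 0.05, and the bar is the list median, which for the ER genes is -0.19 on the left and 0.15 on the right.

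The branch of the unfolded protein response that ATF6 and XBP1 control in the endoplasmic reticulum was read as a list of 15 genes. In AAV9-GFP hearts 12 of the 15 had a log2 fold change below 0 after TAC (median -0.19), and 1 passed the test: Sdf2l1, a partner of the chaperone BiP (-0.58, SE 0.17, adjusted p = 0.024 by edgeR). Hspa5, which encodes BiP, had a log2 fold change of -0.37 (SE 0.13, adjusted p = 0.064 by edgeR) and Herpud1, of the degradation of misfolded proteins, one of -0.49 (SE 0.17, adjusted p = 0.064); DESeq2 called both. In AAV9-Cardinal hearts 13 of the 15 were above 0 (median 0.15), and Edem1, which marks misfolded glycoproteins for removal, and Atf6, the sensor itself, rose by 0.50 (SE 0.10) and 0.48 (SE 0.12).

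None of the 15 genes passed the interaction test by edgeR or DESeq2. By edgeR, 7 of them had an unadjusted p under 0.05, beside 1722 of all 16857 tested genes. Of the 15, 14 had a larger log2 response with AAV9-Cardinal than with AAV9-GFP (median difference 0.41, beside -0.00071 over all tested genes). The 2 sham groups enter this difference too: between the sham groups 14 of the 15 were lower with AAV9-Cardinal (median -0.14), and between the TAC groups 14 of the 15 were higher (median 0.20), none of them called. The sum of the cardiomyocyte markers was 31194 to 32060 CPM in AAV9-GFP sham and 22542 to 27531 CPM in AAV9-GFP TAC hearts. With AAV9-Cardinal it was 30416 to 33714 CPM after sham surgery and 28042 to 30107 CPM after TAC. Its part in the values of the 15 genes was not tested. Of 5 mitochondrial chaperones and proteases, Clpp, Hspd1 and Hspa9 fell with AAV9-GFP, by 0.27, 0.26 and 0.23 on the log2 scale, and none passed with AAV9-Cardinal by edgeR or DESeq2 (0 had an unadjusted p under 0.05). Fgfr1 rose by 0.25 (SE 0.065, adjusted p = 0.014 by edgeR) in AAV9-GFP TAC hearts and had a log2 fold change of 0.070 with AAV9-Cardinal.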

How the data were processed

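Poly(A)-selected RNA was sequenced as single-end 50-base reads. The authors deposited raw counts per Ensembl gene and mouse, without normalization. The submitters' processing notes name FastQC, HISAT2 2.1.0, edgeR 3.26.1 and GRCm38; the counting program, its annotation, its use of strand and its treatment of reads with several matches are not given in the sources used here. Genes were named with GENCODE M21 (55480 of 55573).

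The counts were normalized by TMM in edgeR 4.0.16 (R 4.3.3) and filtered by filterByExpr with the 4 groups, which left 16857 genes. One quasi-likelihood model held all 16 mice, and each comparison was a contrast of its coefficients. Genes with a p under 0.05 after Benjamini-Hochberg adjustment were called. Standard errors were the log2 fold change divided by the root of F. Single genes were also compared by exact two-sided permutation of mean log2 CPM (prior count 2; 70 labelings). The sample labels give separate mice, and all pairs differed by more than sampling noise. Alternatives were DESeq2 1.42.0, RLE normalization, no filter, only the 8 mice compared, mouse number as a block, no mitochondrial genes, and each mouse left out. The average over both viruses was added after seeing the data. The method was tested on simulated data.

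The members and gene lists were chosen with earlier results of these data known. Named were the 10 members, from each list the called genes (up to 4 with the largest change in each TAC comparison) or else the gene with the largest change, Cardinal, and 4 markers of hypertrophy or fibrosis used by the study; Klb, Hspa5, Herpud1, and values beside those named by the rule, were picked after their values were seen. Mouse numbers in the labels were not taken as pairs. Same-numbered mice of 2 groups had correlations of deviations of -0.040 to 0.21, and those of mouse number 1 were 0.10 to 0.21. Differently numbered mice were not compared, so this check cannot settle whether mice of the same number shared a factor. Shared 50-base stretches were counted over GENCODE M21 transcripts. Plots were made with matplotlib 3.10.9.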

Additional observations from a re-analysis of the deposited data

Results flagged for a closer look

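In 44 groups of 4 values (the members and the total counts), 3 held a mouse farther from the others than Dixon's 95% critical value allows, where chance gives about 2.2. Phgdh in AAV9-GFP sham replicate 3 was at 0.343 CPM while the other 3 mice were at 0. Psat1 in AAV9-GFP sham replicate 1 was at 1.61 CPM, below the 2.07 to 2.16 CPM of the others. The total count of AAV9-Cardinal sham replicate 4 was 16441997, and those of the other AAV9-Cardinal sham mice were 21603910 to 21786630.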

How the results depend on the processing

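The 4 calls that TAC gave in the average, and the 2 in AAV9-GFP hearts, were the same under RLE normalization and without mitochondrially encoded genes, and DESeq2 called the same 2 in AAV9-GFP hearts and 5 in the average. In AAV9-GFP hearts the number of called members was 0 without the expression filter, where Phgdh had an adjusted p of 0.06 by edgeR. It was 1 with only the 8 mice compared (Mthfd2), where Phgdh did not pass the filter and was not tested. With mouse number as a replicate block it was 0, and the average kept 1 (Mthfd2). Without the filter the average gave 3, and Phgdh lost its call (adjusted p = 0.081 by edgeR). With 1 mouse left out, the number was 0 to 2 in AAV9-GFP hearts (0 without sham replicate 1 or 2 or TAC replicate 4), 0 to 1 in AAV9-Cardinal hearts, 2 to 5 in the average and 0 in the other comparisons. The interaction and the average need all 16 mice, so they were not run with only 8. Under the block the log2 fold changes in AAV9-GFP hearts were 3.04 for Phgdh (adjusted p = 0.12 by edgeR) and 0.81 for Mthfd2 (adjusted p = 0.079). Mouse numbers 5 and 6 occurred only in AAV9-Cardinal TAC and number 7 only in AAV9-GFP TAC. The block gave each of these mice a term of its own, so they added nothing to the group comparisons. AAV9-Cardinal TAC then rested on replicates 1 and 4, and AAV9-GFP TAC on replicates 1, 3 and 4. How far this accounts for the calls lost under the block was not tested.

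Some values that had not passed the test changed sign. The interaction of Shmt2 was 0.0002958 under RLE normalization and 0.008861 without the filter, where the virus difference of Atf4 after TAC was 0.0002146. Under the replicate block, Ddit3 was -0.015 after TAC with AAV9-GFP and 0.18 with AAV9-Cardinal, where Asns was -0.19 in place of 0.34. Under the same block the virus difference after TAC was 0.14 for Ddit3 and -0.0078 for Shmt2, and the interaction was -0.092 for Atf5, 0.19 for Ddit3 and -0.38 for Asns. With 1 mouse left out, TAC with AAV9-GFP gave -0.034 to 0.061 for Ddit3, and TAC with AAV9-Cardinal gave -0.15 to 0.10 for Ddit3 and -0.25 to 0.0095 for Psat1. The virus difference after TAC was then -0.095 to 0.068 for Atf4, -0.10 to 0.083 for Atf5, -0.21 to 0.036 for Ddit3, -0.40 to 0.17 for Phgdh and -0.0095 to 0.069 for Shmt2, and after sham surgery -0.088 to 0.055 for Atf5 and -0.025 to 0.095 for Shmt2. The interaction was -0.086 to 0.12 for Atf5, -0.16 to 0.092 for Ddit3, -0.12 to 0.21 for Asns and -0.065 to 0.056 for Shmt2, and the average was -0.067 to 0.056 for Ddit3. The values under the block came from fits to which AAV9-Cardinal TAC replicates 5 and 6 and AAV9-GFP TAC replicate 7 added nothing. The cause of the changes of sign was not tested.

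Over all genes, TAC with AAV9-Cardinal gave 1092 calls, 615 without the filter and 31 under the block, and the virus difference after TAC gave 17 calls, 339 by DESeq2, 30 without mitochondrially encoded genes, 3 without the filter, 3 with only the 8 mice compared and 0 under the block. Under the block the average gave 2019 calls in place of 3888. The virus difference after sham surgery gave 2 calls (4 by DESeq2, 1 under the block) and the interaction 2 (19 by DESeq2, 1 under the block). Fgf21 had 0 counts and could not be tested, and Phgdh had 22 counts at most in any mouse.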
